A study of Mus musculus with 12 samples.

Results

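Arginine, nitric oxide and tryptophan metabolism were examined through 7 genes in CT26, a mouse colon carcinoma cell line: NOS2, ARG1, ARG2, ASS1, ASL, GCH1 and IDO1. They were chosen by name and function, with earlier results of these data known, and all 7 were found among the 23636 gene symbols of the table. Over 8 hours the cells received IFN-γ at 100 ng/ml, CX3CL1 at 2 µg/ml, both cytokines, or no treatment. The labels and a figure legend of the paper name only IFN-γ and CX3CL1. The main text of the paper instead describes IFN-γ with TNF-α, and CX3CL1 given afterwards. The order of addition and any use of TNF-α are therefore not settled here. Each of the 4 groups had 3 libraries labelled as biological replicates, so 12 libraries of bulk RNA were compared. CX3CL1 (fractalkine) is the ligand of the receptor CX3CR1, and IFN-γ is a cytokine of T cells and natural killer cells. All groups shared the same unmodified cell line, which stands for tumor cells alone, without host cells.

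NOS2 is the inducible nitric oxide synthase, which makes nitric oxide from arginine and needs tetrahydrobiopterin as a cofactor. GCH1 catalyzes the first and rate-limiting step of tetrahydrobiopterin synthesis, ASS1 and ASL rebuild arginine from citrulline, and the arginases ARG1 and ARG2 compete with NOS2 for arginine and turn it into ornithine and urea. IDO1 is a heme enzyme that starts the breakdown of tryptophan to kynurenine, and both IDO1 and NOS2 are known as inflammation-induced enzymes that deprive T cells of amino acids or act on them through their products.

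The values are TPM, transcript abundances corrected for gene length, which can be compared between genes. Each library summed to the same total, so TPM hold no read depth and no counting error could be given. A value of 1 TPM or more was measured for 10613 to 10824 symbols in each library. The fit used log2(TPM + 1) in limma over the 11878 genes that averaged 0.2 TPM or more across the 12 libraries, and calls were made at a Benjamini-Hochberg adjusted p under 0.05 over all of these genes. Fold changes are given as log2 fold changes of TPM + 1 with their standard error (SE), and on this scale the changes of weakly expressed genes come out too small. With 3 libraries in each group, the smallest two-sided p of an exact permutation test is 0.1, so the calls depend on limma's sharing of the spread between genes.

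The IFN-γ treatment was checked in GBP2, IRF1 and CXCL9, interferon-response genes that were each called higher with IFN-γ. CXCL9 averaged 0.2 TPM or more only through the groups with IFN-γ, so its call is partly set by that filter. GBP2 was also called higher with CX3CL1 alone, with a log2 fold change of 2.82. CX3CR1 itself ran from 0 to 0.154 TPM and was not tested. These are RNA levels, while the paper reports high CX3CR1 protein on cultured CT26 cells by flow cytometry. Of 7 defining leukocyte markers (PTPRC, ITGAM, ADGRE1, CSF1R, TYROBP, AIF1 and FCGR1), TYROBP was listed at 0 in every library and none exceeded 0.134 TPM. The summed level of 16 macrophage and granulocyte markers, mostly CD14 and CD68, was 36.7 to 47.7 TPM without treatment, 42.7 to 71.5 with CX3CL1, 40.7 to 61.7 with IFN-γ and 48.1 to 79.7 with both. MRC1, the macrophage mannose receptor, was 0.574 to 0.753 TPM without treatment and 1.06 to 5.51 TPM in the treated libraries, and was called higher with CX3CL1 (log2 fold change 1.25, adjusted p = 0.0330) and with both (1.66, adjusted p = 0.00116). Its part in the results on NOS2, GCH1 and IDO1 was not tested. The epithelial markers EPCAM, CDH1, KRT19, CDX2, VIL1 and MUC2 did not exceed 0.191 TPM, with EPCAM listed at 0 throughout. Of the 11 markers in this list, 3 were tested, and all 3 moved with a treatment. CDH17, the intestinal cadherin, ran from 1.65 to 13.2 TPM and was called higher with IFN-γ (log2 fold change 2.17, adjusted p = 4.9e-06) and with both (2.11, adjusted p = 2.5e-06). KRT18, an epithelial keratin of 18.4 to 53.6 TPM, was called lower with IFN-γ (-0.68, adjusted p = 0.0346) and with both (-1.02, adjusted p = 0.00171), and VIM, the mesenchymal filament vimentin, was called lower with both (-0.86, adjusted p = 0.0186). These 3 markers were called with IFN-γ or with both cytokines, as GCH1 and IDO1 were, and none was called with CX3CL1 alone, where GCH1 was. NOS2 was called with both but not with IFN-γ alone. The part of these markers in the results on NOS2, GCH1 and IDO1 was not tested.

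Of the 7 genes, 4 (NOS2, GCH1, ASL and IDO1) passed the filter on low values and were tested, and ARG1, ARG2 and ASS1 did not pass it. With CX3CL1, 1 of the 4 was called higher (GCH1), where 1.78% of all genes tested were called higher and 0.168% lower. With IFN-γ, 2 of the 4 were called higher (GCH1 and IDO1), beside 5.91% of all genes higher and 1.94% lower. With both cytokines against no treatment, 3 of the 4 were called higher (NOS2, GCH1 and IDO1), beside 8.21% of all genes higher and 3.72% lower. None of the 4 was called lower in any comparison. IDO1 passed the filter only through the groups with IFN-γ, where it was high, so its calls there are partly set by the filter and the counts are a description. Without IDO1, 1 of 3 was called higher with IFN-γ and 2 of 3 with both. The median log2 fold change of the 4 tested genes, IDO1 included, was 0.49 with CX3CL1, 0.93 with IFN-γ and 1.11 with both. The median over all genes tested was -0.02, 0.03 and 0.02. These 3 comparisons share the untreated libraries. The background split moved with the scaling of the libraries: higher genes made up 75.3% of the calls with IFN-γ and 68.8% with both, against 64.6% and 61.8% with median-ratio scaling and 50.9% and 47.3% with quantile normalization. GCH1, IDO1 and NOS2 kept these calls under both scalings.

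Adding CX3CL1 to IFN-γ left 1 of the 4 called higher, NOS2, beside 0.345% of all genes called higher and 0.0168% lower. Adding IFN-γ to CX3CL1 left 2 called higher, NOS2 and IDO1, beside 3.76% higher and 0.935% lower. IFN-γ alone against CX3CL1 alone left IDO1 as the 1 called gene of the 4, beside 3.52% higher and 1.06% lower. IDO1 passed the filter only through the groups with IFN-γ, so its calls here are partly set by the filter. Without IDO1, only NOS2 was called when IFN-γ was added to CX3CL1, and none for IFN-γ alone against CX3CL1 alone. Higher genes made up 80.1% and 76.8% of the calls in these last 2 comparisons, against 65.6% and 55.2% with median-ratio scaling and 60.5% and 54.1% with quantile normalization. In the interaction, the difference between the CX3CL1 effect with and without IFN-γ, no gene of the 11878 was called in limma (0% in either direction), and 273 genes had an unadjusted p under 0.05. That is a smaller share of the genes than a threshold of 0.05 would pass by chance alone. The interaction had 1 call with quantile normalization and 52 with the replicate number as a block, none of them among the 4 genes.

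The gene for NOS2 lies on chromosome 11 from 78920787 to 78960254, on the plus strand of GRCm38. NOS2 was close to 0 in untreated cells and was highest with both cytokines. Without treatment it was 0.0885, 0.00859 and 0 TPM in replicates 1, 2 and 3. With CX3CL1 alone it was 3.69, 0.368 and 1.40 TPM, and with IFN-γ alone 2.29, 0.318 and 1.07 TPM. With CX3CL1 and IFN-γ together it was 39.4, 5.15 and 31.9 TPM. Every library with both cytokines lay above every library of the other 3 groups, and every library with a single cytokine lay above every untreated one, while the 2 single-cytokine groups overlapped. The group means were 0.0324 ± 0.0488 TPM (SD, n = 3) without treatment, 1.82 ± 1.70 with CX3CL1, 1.23 ± 0.993 with IFN-γ and 25.5 ± 18.0 with both. These are bulk values, so more transcript per cell and more cells with the transcript cannot be told apart.

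**Figure D1:**
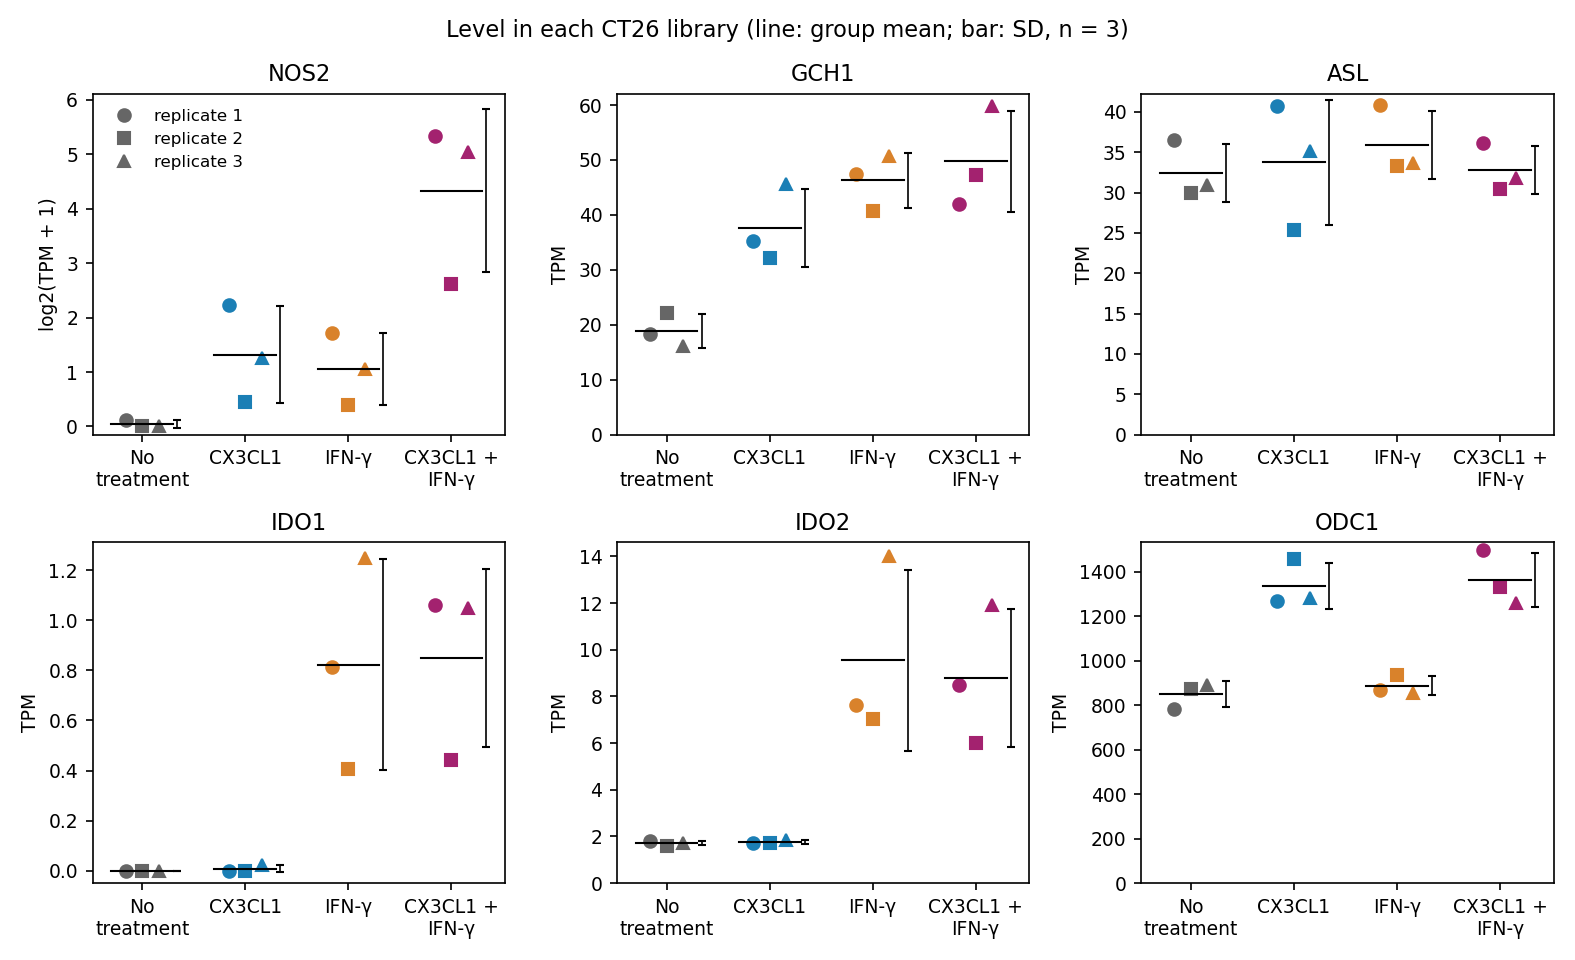
Level of NOS2 as log2(TPM + 1), and of GCH1, ASL, IDO1, IDO2 and ODC1 in TPM (vertical axes), in the 4 groups of 3 CT26 libraries (horizontal axes). Markers are replicate numbers 1 to 3, lines are group means and bars the SD; NOS2 was highest with both cytokines, GCH1 was higher in all 3 treated groups, ASL overlapped in all groups, IDO1 and IDO2 were higher in both groups with IFN-γ, and ODC1 in both groups with CX3CL1.

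The rise of NOS2 with both cytokines was larger than the spread between replicates against each of the other groups. Against untreated cells it rose by 4.29 on the log2 scale (SE 0.61, adjusted p = 3.8e-04), and all 17 alternative fits made this call, with log2 fold changes of 3.79 to 7.21. Against CX3CL1 alone it was 3.02 (SE 0.61, adjusted p = 0.0130), a mean of 14.0 times the CX3CL1 level. Against IFN-γ alone it was 3.28 (SE 0.61, adjusted p = 0.0444), a mean of 20.8 times the IFN-γ level. By this log2 fold change NOS2 ranked 3 of the 11878 genes tested when CX3CL1 was added to IFN-γ, and 36 of 11878 with both cytokines against no treatment.

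The call of NOS2 for both cytokines against IFN-γ was close to the threshold. It was lost when 1 library was left out in 5 of 6 fits, with an adjusted p of 0.0718 without IFN-γ replicate 1, 0.241 without IFN-γ replicate 2, 0.159 without IFN-γ replicate 3, 0.236 without CX3CL1 + IFN-γ replicate 1 and 0.244 without CX3CL1 + IFN-γ replicate 3. Without CX3CL1 + IFN-γ replicate 2 the log2 fold change was 4.13 and the adjusted p was 8.4e-04. In these 6 fits the log2 fold change stayed between 2.78 and 4.13, and over all 17 alternatives the call was made in 7, with adjusted p from 8.4e-04 to 1. Against CX3CL1 alone the call was lost without CX3CL1 + IFN-γ replicate 1 (adjusted p = 0.0594) or replicate 3 (adjusted p = 0.0707), and it was made in 12 of 17 alternatives (adjusted p from 3.0e-04 to 0.358).

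The single cytokines gave smaller differences in NOS2 that were not called. With CX3CL1 the log2 fold change was 1.27 (SE 0.61, 95% interval -0.06 to 2.60, adjusted p = 0.670), and with IFN-γ it was 1.01 (SE 0.61, 95% interval -0.32 to 2.34, adjusted p = 0.366). The difference between IFN-γ and CX3CL1 alone was -0.26, with a 95% interval of -1.59 to 1.07. With a pseudocount of 0.1 in place of 1, which gives low values more weight, IFN-γ against no treatment was called, with a log2 fold change of 3.05 and an adjusted p of 0.0456. Over the 17 alternatives, NOS2 was called in 4 with IFN-γ (adjusted p from 6.6e-04 to 0.784) and in 1 with CX3CL1 (from 7.0e-04 to 1). Neither NOS1 nor NOS3, the neuronal and endothelial synthases, passed the filter: NOS1 was at most 0.0438 TPM and NOS3 ran from 0.0929 to 0.233 TPM.

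NOS2 varied more between replicates than nearly any other gene. Its SD within groups was 0.93 on the log2(TPM + 1) scale, above that of 99.8% of the genes tested, where the median gene had 0.17. Replicate 2 was the low library in each treated group: it held 0.144 of the mean of the other 2 libraries with CX3CL1, 0.189 with IFN-γ and 0.145 with both. The ratios between groups varied less than the levels. Taken by replicate number, NOS2 with both cytokines was 17.2, 16.2 and 29.7 times the level with IFN-γ alone, and 10.7, 14.0 and 22.7 times the level with CX3CL1 alone. Leaving out replicate 2 from every group gave a log2 fold change of 3.80 against IFN-γ alone, with an adjusted p of 0.00348, while leaving out replicate 1 or 3 from every group gave an adjusted p of 0.362 or 1.

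The level of NOS2 with both cytokines exceeded the sum of the single changes in TPM. Adding the CX3CL1 and IFN-γ levels and subtracting the untreated level gave 5.89, 0.677 and 2.48 TPM for replicate numbers 1, 2 and 3. The measured levels were 6.68, 7.61 and 12.9 times these sums, so all 3 replicate numbers lay above the sum. On the log2(TPM + 1) scale the interaction was 2.01 (SE 0.87), with an unadjusted p of 0.0382 in limma and an adjusted p of 1. The size of this difference depended on the scale: with a pseudocount of 0.1 it was 0.71.

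**Figure D2:**
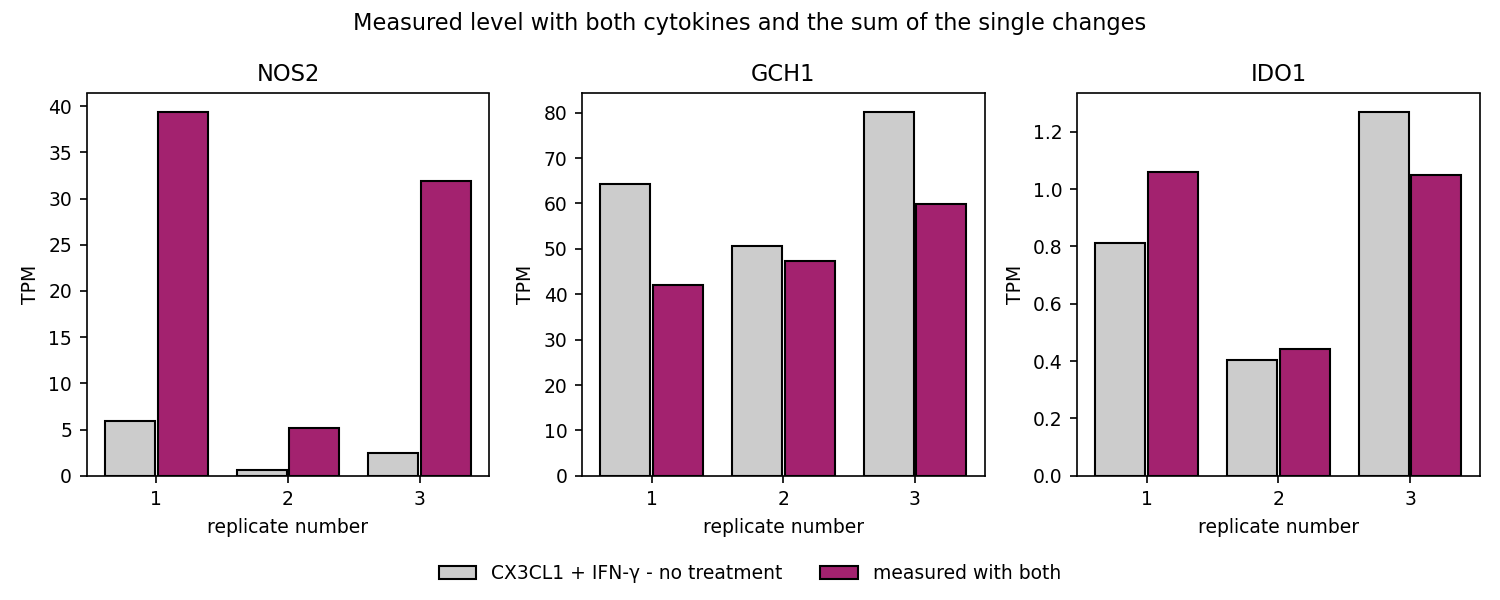
TPM of NOS2, GCH1 and IDO1 with CX3CL1 + IFN-γ (purple bars) beside the sum of the single changes, which is the CX3CL1 level plus the IFN-γ level less the untreated level (gray bars), by replicate number on the horizontal axes. The measured NOS2 level was 6.68 to 12.9 times the sum, the measured GCH1 level 0.654 to 0.934 times it, and that of IDO1 0.825 to 1.30 times it.

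GCH1 was already expressed in untreated cells and rose with either cytokine. It was 18.4, 22.1 and 16.1 TPM without treatment and 35.2, 32.1 and 45.6 TPM with CX3CL1. It was 47.4, 40.7 and 50.7 TPM with IFN-γ and 42.0, 47.3 and 59.9 TPM with both. All 9 treated libraries lay above the 3 untreated ones, and the treated groups overlapped each other. The log2 fold change was 0.96 with CX3CL1 (SE 0.17, adjusted p = 0.00683), 1.26 with IFN-γ (SE 0.17, adjusted p = 2.9e-04) and 1.35 with both (SE 0.17, adjusted p = 1.1e-04), and each call held whichever single library was left out. The call with CX3CL1 was lost when replicate 1 (adjusted p = 0.112) or replicate 3 (adjusted p = 0.158) was left out of every group. In means, GCH1 was 2.00, 2.46 and 2.64 times the untreated level.

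The GCH1 level with both cytokines was not called higher than with either alone. Adding CX3CL1 to IFN-γ changed it by 0.09 on the log2 scale (95% interval -0.27 to 0.45), and adding IFN-γ to CX3CL1 by 0.39 (95% interval 0.04 to 0.75, adjusted p = 0.229). The measured level with both was 0.654, 0.934 and 0.746 times the sum of the single changes, below the sum in all 3 replicate numbers. The interaction of GCH1 was -0.86 (SE 0.23), with an unadjusted p of 0.00287 in limma and an adjusted p of 0.453.

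The gene lies on chromosome 14 from 47153895 to 47189413, on the minus strand of GRCm38, and 2 processed pseudogenes overlap it, so some reads could have been shared. Among the 7 genes, the promoter table from RefSeq held ASS1 and GCH1. The 250 bases before the start of GCH1 are shown because GCH1 is the gene here that was called with each cytokine, with sequence matches in capitals (chr14:47189414-47189663, GRCm38.p6, minus strand, printed 5′ to 3′ along the gene).

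GCH1: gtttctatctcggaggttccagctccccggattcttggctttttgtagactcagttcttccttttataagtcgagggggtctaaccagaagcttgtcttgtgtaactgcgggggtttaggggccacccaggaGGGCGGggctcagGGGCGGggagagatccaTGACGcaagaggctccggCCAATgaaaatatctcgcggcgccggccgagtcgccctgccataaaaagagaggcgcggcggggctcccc

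The capitals mark, from left to right, 2 GC boxes (GGGCGG), a core of the cAMP response element (TGACG) and a CCAAT box, all on the strand of the gene. These 3 motifs were picked after the sequence was read and were searched on both strands. GGGCGG was held by 32.7% of the 32851 promoter windows, TGACG by 17.8% and CCAAT by 33.8%. The GC boxes began 118 and 105 bases before the start, TGACG began 88 and CCAAT 70 bases before it. None of the motifs chosen for the cytokines, searched on both strands, was found in this window: the gamma-activated site TTCNNNGAA (in 7.02% of windows), the IRF and ISRE core GAAANNGAA (7.13%), the NF-kB core GGNNTTTCC (4.93%) and the AP-1 site TGANTCA (6.75%). The TATA box TATAAA, searched on the strand of the gene, is in 7.59% of windows and was not found here. The same 5 motifs were not found in the window of ASS1.

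ASL, which splits argininosuccinate into arginine and fumarate, had similar levels in all groups. Its gene lies on chromosome 5 from 130011258 to 130029247, on the minus strand. It was 36.5, 29.9 and 30.9 TPM without treatment and 40.7, 25.4 and 35.1 TPM with CX3CL1. It was 40.8, 33.3 and 33.7 TPM with IFN-γ and 36.1, 30.5 and 31.8 TPM with both. The 4 groups overlapped, and ASL was not called in any comparison. Its log2 fold change against no treatment was 0.03 with CX3CL1 (95% interval -0.31 to 0.37), 0.14 with IFN-γ (-0.20 to 0.48) and 0.02 with both (-0.32 to 0.36).

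ASS1, which makes argininosuccinate from citrulline and aspartate and comes just before ASL, was listed at 0 in all 12 libraries, and so was ARG1, the cytosolic arginase. ARG2, the mitochondrial arginase, was listed at 0 except for 0.0295 and 0.0329 TPM in replicates 1 and 3 with both cytokines. A listed 0 can be a failed estimate: OAZ1, AMD1 and PCBD1, which most cells use, were also at 0 in every library. ARG2 overlaps Vti1b and an antisense gene, and its low values are uncertain where reads were shared. In the group with both cytokines, ASL was 0.917, 5.91 and 0.998 times the NOS2 level in TPM, against 17.9 to 105 times with IFN-γ alone and 11.0 to 69.0 times with CX3CL1 alone.

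IDO1, on chromosome 8 from 24584136 to 24597009 (minus strand), was measured in cells given IFN-γ at a low level. It was listed at 0 in all 3 untreated libraries and in 2 of 3 CX3CL1 libraries, with 0.0233 TPM in the other. It was 0.813, 0.405 and 1.25 TPM with IFN-γ and 1.06, 0.441 and 1.05 TPM with both. The 6 libraries with IFN-γ all lay above the 6 without it, and the IFN-γ groups with and without CX3CL1 overlapped. The mean was 0.823 ± 0.423 TPM (SD, n = 3) with IFN-γ and 0.849 ± 0.353 TPM (SD, n = 3) with both.

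The log2 fold change of IDO1 was 0.84 with IFN-γ (SE 0.17, adjusted p = 0.00729) and 0.87 with both cytokines against no treatment (SE 0.17, adjusted p = 0.00368). Each of these calls was made in 14 of 16 alternatives and lost when replicate 1 (adjusted p = 0.101 and 0.0883) or replicate 3 (adjusted p = 0.203 and 0.0723) was left out of every group. It was 0.86 when IFN-γ was added to CX3CL1 (adjusted p = 0.0102), a call lost without CX3CL1 + IFN-γ replicate 3 (adjusted p = 0.0594). IFN-γ against CX3CL1 gave 0.83 (adjusted p = 0.0151), and this call was lost without CX3CL1 replicate 2 (adjusted p = 0.0504), IFN-γ replicate 1 (adjusted p = 0.0523) or IFN-γ replicate 3 (adjusted p = 0.0663). With a mean of at least 1 TPM required, IDO1 was not tested. Adding CX3CL1 to IFN-γ changed IDO1 by 0.03 (95% interval -0.34 to 0.39, adjusted p = 0.993), and CX3CL1 alone by 0.01 (95% interval -0.35 to 0.37).

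**Figure D3:**
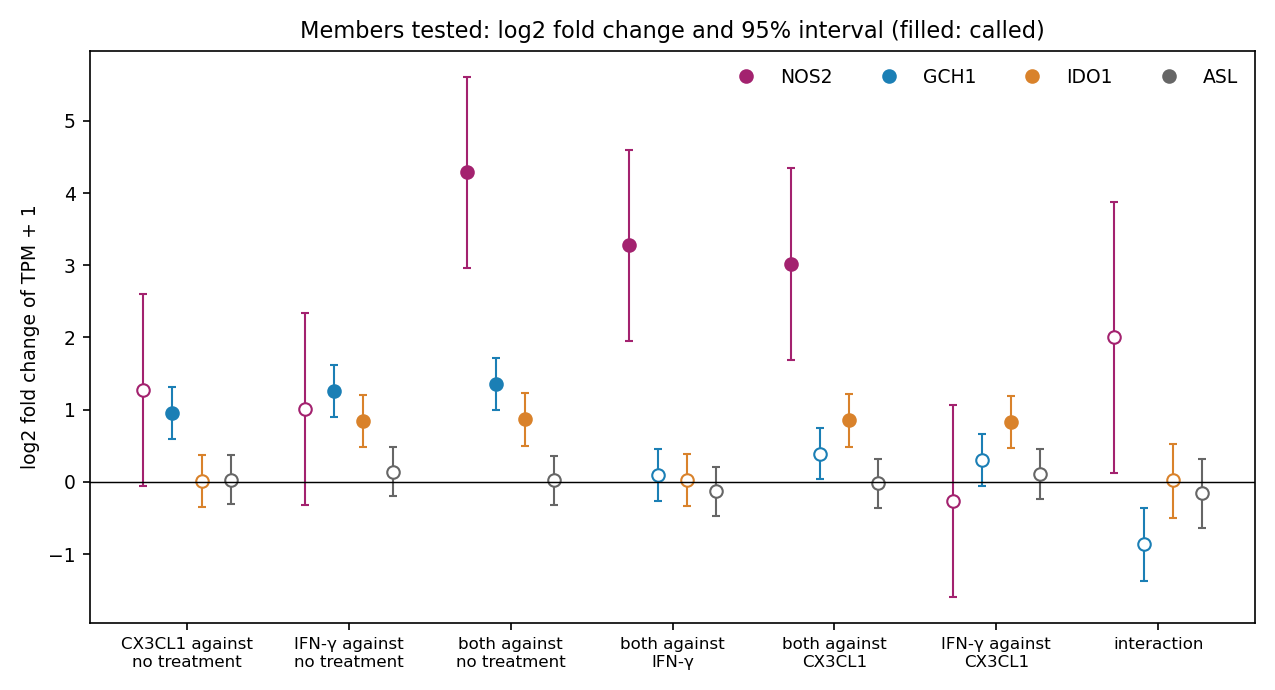
Log2 fold change of TPM + 1 with its 95% interval (vertical axis) for NOS2, GCH1, IDO1 and ASL in the 6 comparisons of groups and the interaction (horizontal axis); filled points passed the adjusted p threshold in limma. NOS2 was called for both cytokines against each other group, GCH1 for each treatment against no treatment, IDO1 in each of the 4 comparisons between a group with IFN-γ and one without, and ASL in none.

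IDO2, the paralogue of IDO1, lies beside it on chromosome 8 with 7802 bases between them, was called in the same 4 comparisons and had a higher level. It was 1.80, 1.61 and 1.72 TPM without treatment, 1.72, 1.71 and 1.85 TPM with CX3CL1, 7.62, 7.03 and 14.0 TPM with IFN-γ, and 8.48, 6.01 and 11.9 TPM with both. The libraries with and without IFN-γ did not overlap. The log2 fold change was 1.90 with IFN-γ (SE 0.23, adjusted p = 1.7e-04) and 1.81 with both against no treatment (adjusted p = 1.7e-04), and both calls held whichever single library was left out. CX3CL1 changed IDO2 by 0.03 alone (95% interval -0.48 to 0.53) and by -0.09 on top of IFN-γ (95% interval -0.60 to 0.41). In TPM, IDO2 was 9.38 to 17.3 times IDO1 with IFN-γ and 8.04 to 13.6 times with both. TDO2, the hepatic tryptophan dioxygenase, was listed at 0 in every library.

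Other genes of these pathways were taken from 6 lists of 91 symbols, of which 85 were in the table and 47 were tested. Of the 47, 2 were called higher with CX3CL1 and 7 with IFN-γ, none lower, and 9 were called higher and 2 lower with both cytokines against no treatment. Over all genes tested, 1.78% were higher and 0.168% lower with CX3CL1, 5.91% and 1.94% with IFN-γ, and 8.21% and 3.72% with both. With the replicate block the counts were 3 higher and 2 lower with CX3CL1, 10 and 3 with IFN-γ, and 9 and 4 with both. With replicate 3 left out of every group they were 0 with CX3CL1, 1 higher with IFN-γ (IDO2) and 3 higher with both, and with replicate 1 left out 2 higher and 1 lower with IFN-γ. With IFN-γ, WARS and SMOX lost their calls without replicate 1 or 3 and SAT1 without replicate 2 or 3, and with both GAMT lost its call without replicate 3. The median log2 fold changes of the 47 were 0.01, 0.07 and -0.02, beside -0.02, 0.03 and 0.02 over all genes. With quantile normalization the split was 5 higher and 2 lower with IFN-γ and 7 higher and 7 lower with both, and no called gene changed sign. When CX3CL1 was added to IFN-γ, 1 of the 47 was called, ODC1. Adding IFN-γ to CX3CL1 left 6 higher and none lower, IFN-γ against CX3CL1 left 5 higher and 1 lower, and the interaction left none.

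Ornithine decarboxylase ODC1, which turns the product of arginase into putrescine, was higher wherever CX3CL1 was present. It was 784, 873 and 893 TPM without treatment, 1269, 1456 and 1281 TPM with CX3CL1, 869.9, 935 and 856 TPM with IFN-γ, and 1498, 1333 and 1259 TPM with both. The 6 libraries with CX3CL1 all lay above the 6 without it. The log2 fold change was 0.65 with CX3CL1 (SE 0.10, adjusted p = 0.00379) and 0.62 when CX3CL1 was added to IFN-γ (SE 0.10, adjusted p = 0.0243). The first of these calls was lost when replicate 2 (adjusted p = 0.0733) or replicate 3 (adjusted p = 0.162) was left out of every group. The second of these calls was lost whichever single library was left out, with adjusted p from 0.0544 to 0.140 and log2 fold changes from 0.55 to 0.67. With IFN-γ alone, the log2 fold change of ODC1 was 0.06 (95% interval -0.16 to 0.29).

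Of the 17 tested genes of the polyamine, proline and creatine branches, 2 were called higher with CX3CL1, 3 with IFN-γ, and 4 higher and 1 lower with both, where 1.78%, 5.91% and 8.21% of all genes were called higher and 3.72% lower with both. SAT1, which acetylates polyamines for export, was higher with IFN-γ (log2 fold change 0.56, adjusted p = 0.00582) and with both (0.96, adjusted p = 5.7e-05). With CX3CL1 alone SAT1 changed by 0.47 (adjusted p = 0.0449), a call lost in 5 of 6 fits that left out 1 library and under median-ratio scaling and quantile normalization. SMOX, which oxidizes spermine, rose by 0.48 with IFN-γ (adjusted p = 0.00750). PAOX, a polyamine oxidase, rose by 0.38 with IFN-γ (adjusted p = 0.0480), which was lost in 5 of 6 such fits and under these scalings. GAMT, the last enzyme of creatine synthesis, went from 15.5 ± 3.89 TPM in untreated cells to 7.11 ± 1.94 TPM with both (SD, n = 3), a log2 fold change of -1.03 (adjusted p = 0.00620). With the replicate block GAMT was also called lower with CX3CL1 (-0.54, adjusted p = 0.024) and with IFN-γ (-0.63, adjusted p = 0.00404). SMS, also in this list, was 37.3 to 49.6 TPM without treatment and 18.3 to 30.5 TPM with IFN-γ. It was called lower with IFN-γ with the block, with only the libraries compared and without replicate 1 in every group, but not in the fit without these changes.

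In the urea cycle and arginine uptake list, 1 of 7 tested genes was called higher with IFN-γ, beside 5.91% of all genes, and with both, beside 8.21%. SLC3A2, the heavy chain that several amino acid transporters share, rose from 155 ± 17.1 TPM to 233 ± 14.9 TPM (SD, n = 3) with IFN-γ, which is 0.59 on the log2 scale (SE 0.10, adjusted p = 0.00176). It also rose with both cytokines against no treatment (0.56, adjusted p = 0.00153), and both calls held whichever single library was left out. With a replicate number left out of every group, the call with IFN-γ was lost without replicate 1 (adjusted p = 0.0607) or 3 (adjusted p = 0.0984), and the call with both without replicate 3 (adjusted p = 0.0855). SLC7A1, a transporter that brings arginine into many cells, was measured at 83.5 to 128 TPM and was not called. SLC7A2, an arginine transporter of activated macrophages, was listed at 0 in every library.

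Around tetrahydrobiopterin, 6 further genes were tested, and 1 was called in any comparison. PTS, the enzyme after GCH1, was 13.4 ± 0.847 TPM in untreated cells and 9.89 ± 1.01 TPM with both (SD, n = 3), a log2 fold change of -0.40 (adjusted p = 0.0283) that lost its call in 4 of 6 fits that left out 1 library (adjusted p from 0.0306 to 0.118 over the 6). GCHFR, the feedback regulator that binds GCH1, was 68.2 ± 11.6 TPM in untreated cells and 50.9 ± 7.92 TPM with both (SD, n = 3) and was not called. The ratio of GCH1 to GCHFR in TPM was 0.251 to 0.310 without treatment, 0.404 to 0.570 with CX3CL1, 0.709 to 1.07 with IFN-γ and 0.874 to 1.06 with both. The ratio was thus higher in all 9 treated libraries than in the 3 untreated ones, and higher in the 6 with IFN-γ than in the 3 with CX3CL1 alone.

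Among 6 tested genes for nitric oxide synthesis and handling, 1 was called higher with IFN-γ, 2 with both and none with CX3CL1, beside 5.91%, 8.21% and 1.78% of all genes. HMOX1, the heme oxygenase, was 138 ± 37.4 TPM in untreated cells and 448 ± 189 TPM with both (SD, n = 3), which is 1.65 on the log2 scale (SE 0.34, adjusted p = 0.00596). HMOX1 was lowest in replicate 2 of each group, as NOS2 was in each treated group. By replicate number, HMOX1 was 1.49, 1.43 and 1.71 times the untreated level with CX3CL1 and 2.50, 1.95 and 1.83 times with IFN-γ. With the replicate block it was called higher with CX3CL1 (adjusted p = 0.0169) and with IFN-γ (adjusted p = 1.9e-04). DDAH1, which degrades an inhibitor of nitric oxide synthases, was called lower with IFN-γ with the block (log2 fold change -0.41). The DDAH1 call was also made with median-ratio scaling, quantile normalization and only the libraries compared, but not in the fit without these changes. The HMOX1 call with both was lost without replicate 3 in every group (adjusted p = 0.121). NOSIP, which binds nitric oxide synthases, rose by 0.49 with IFN-γ (adjusted p = 0.0318), and this call was lost in all 6 fits that left out 1 library (adjusted p from 0.0637 to 0.132).

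Of 7 tested genes of tryptophan and kynurenine metabolism, IDO2 and WARS were called higher with IFN-γ, beside 5.91% of all genes, and with both, beside 8.21%. WARS, the tryptophanyl-tRNA synthetase, went from 105 ± 4.30 TPM to 167 ± 26.0 TPM (SD, n = 3) with IFN-γ, which is 0.65 on the log2 scale (SE 0.12, adjusted p = 0.00326). KMO and KYNU, which act on kynurenine, did not exceed 0.0267 and 0.00768 TPM and were not tested. The aryl hydrocarbon receptor AHR, which kynurenine can activate, was measured at 19.3 to 31.0 TPM and was not called. Of 4 tested genes in the AHR list, none was called against no treatment without the replicate block. NQO1 alone was called for IFN-γ against CX3CL1 (log2 fold change 0.54, adjusted p = 0.0215). This call was lost in 5 of 6 fits that left out 1 library (adjusted p from 0.0207 to 0.0876). With the block its adjusted p was 0.00748. The block also called NQO1 lower with CX3CL1 (log2 fold change -0.44, adjusted p = 0.0373, against 0.096 without it). Leaving out CX3CL1 replicate 2, without the block, called NQO1 lower with CX3CL1 too. CYP1A1, also in this list, did not exceed 0.264 TPM and was called higher with IFN-γ when no filter was used.

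**Figure D4:**
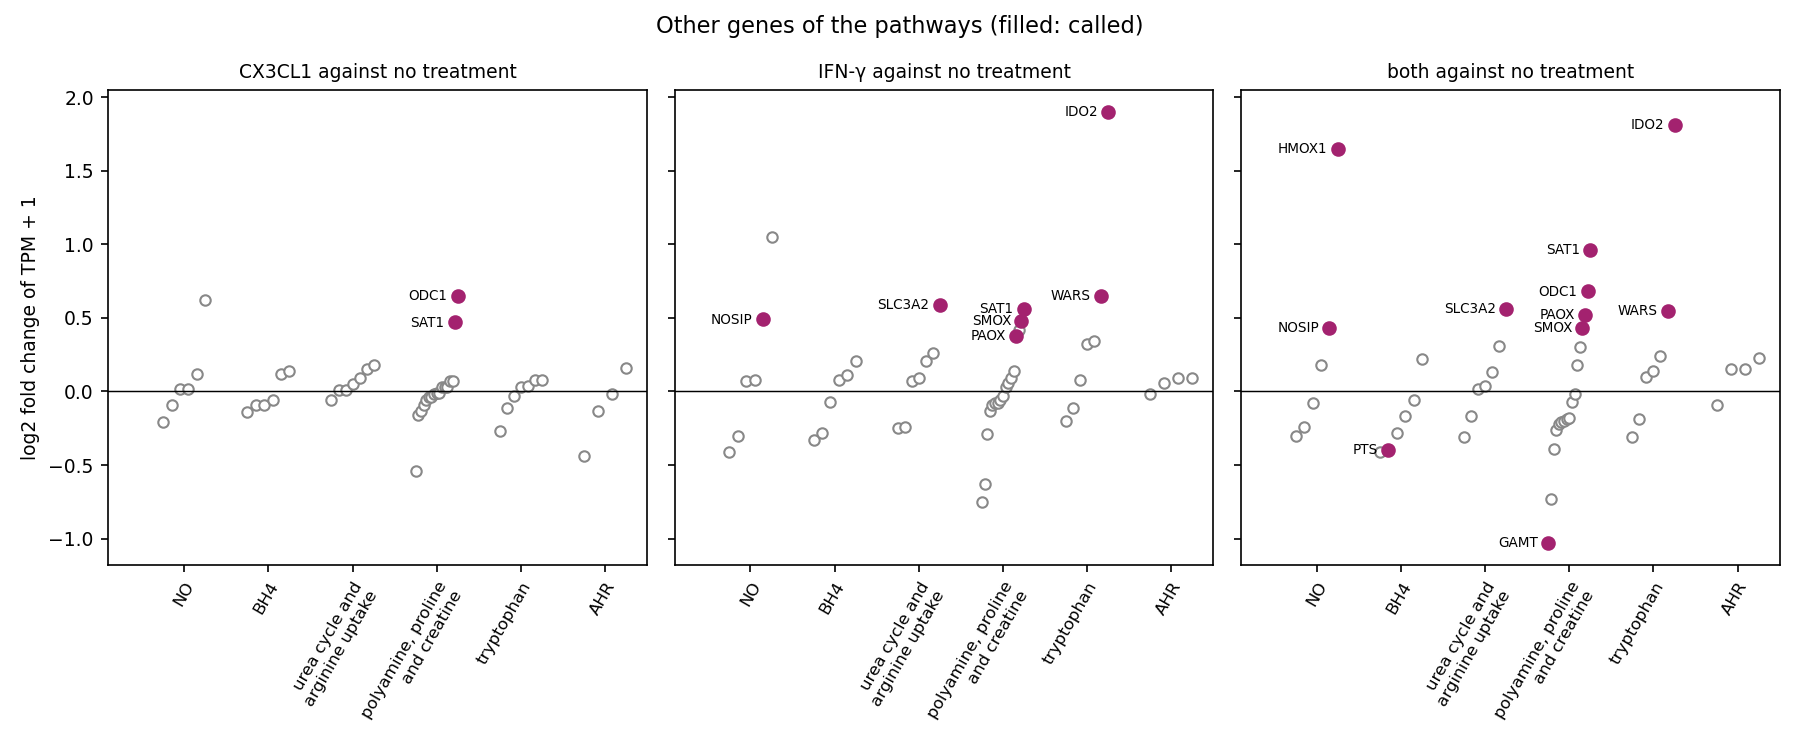
Log2 fold change of TPM + 1 (vertical axes) of the 47 other pathway genes tested, in 6 lists (horizontal axes), for each treatment against no treatment; filled points are named and passed the adjusted p threshold in limma. With CX3CL1, 2 genes were called (ODC1 and SAT1), with IFN-γ 7, and with both 9 higher and 2 lower (GAMT and PTS).

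The genes whose log2(TPM + 1) followed NOS2 most closely over the 12 libraries were SOD2 (Pearson's r = 0.979), NLRP3 (0.963), ICAM1 (0.959), HCAR2 (0.944) and IL1A (0.942). HCAR2 had a mean of 1.87 TPM with both cytokines and at most 0.153 in the other groups. It passed the filter only through the group with both, so its likeness to NOS2 is partly set by the filter. SOD2 is the mitochondrial superoxide dismutase, NLRP3 an inflammasome sensor, ICAM1 an adhesion molecule and IL1A a cytokine. In mean TPM without treatment, with CX3CL1, with IFN-γ and with both, SOD2 was 55.8, 65.7, 61.0 and 117, NLRP3 was 0.393, 2.02, 2.61 and 9.35, and IL1A was 0.0269, 0.383, 0.842 and 5.08. In each of these 3 genes the highest mean was that of the group with both cytokines, which follows in part from picking them by their correlation with NOS2. Closest to GCH1 were IER5 (0.975), IFI211, GM7609 and PLAC8 (0.970 each) and ISG15 (0.967). ISG15, an interferon-induced protein related to ubiquitin, had means of 109.9, 509.6, 860.1 and 878 TPM in the same order, and IFI211 and GM7609 belong to families of similar genes whose reads could have been shared. All points of these correlations come from the same 12 libraries, which hold only 4 conditions.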

How the data were processed

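The authors made strand-specific mRNA libraries (Roche Kapa), aligned reads to mm10 with STAR 2.7.3a in the VIPER pipeline and tested gene counts with DESeq2 1.22.1. The deposited values are TPM, 1 column per library. How counts became TPM, the annotation and the counting of shared reads are not given in the sources used here. Gene counts were not analysed here, so the test of the study was not repeated.

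Groups and replicate numbers came from the labels, which call the replicates biological. All 12 libraries entered 1 fit across genes (limma 3.58.1 in R 4.3.3, lmFit and eBayes with trend, pseudocount of 1, no block), with Benjamini-Hochberg adjustment within each comparison over 11878 genes. The fit was tested on simulated data. The 7 genes and all lists were chosen with earlier results of these data known. Named besides the 7 genes were up to 4 called genes per list and comparison by size of the log2 fold change, the paralogues NOS1, NOS3, IDO2 and TDO2, and the 5 genes most correlated with NOS2 and with GCH1, which had group means at least 1 apart. Values of other listed genes (GCHFR, SLC7A1, SLC7A2, KMO, KYNU, AHR) and the interferon-response genes are given as context, chosen after their values were seen.

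The other settings tried were fits on the compared libraries alone, the replicate number as a block, a pseudocount of 0.1, quantile normalization or median-ratio scaling, a filter at 1 TPM or none, and leaving out each library. A block with a pseudocount of 0.1, and leaving out a replicate number from every group, were added after seeing the data. Libraries with the same replicate number deviated together from their group means between no treatment and IFN-γ (correlations across genes 0.429, 0.460 and 0.220), CX3CL1 and IFN-γ (0.584, 0.361, 0.226), CX3CL1 and both (0.351, 0.353, 0.428) and IFN-γ and both (0.630, 0.635, 0.649). They did not in every pair between no treatment and CX3CL1 (0.387, 0.005, 0.301) or both (0.312, 0.447, 0.032). The pairing rests on these correlations, since no source says what a number shares. Gene positions are from GENCODE vM21, and the promoter sequence from RefSeq.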

Additional observations from a re-analysis of the deposited data

How the results depend on the processing

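Over the 4 tested genes, 424 of 488 log2 fold changes in alternative fits kept their direction and their side of the threshold, 29 lost a call, 5 gained one and 30 changed sign. The sign changes were in differences that no fit called: ASL with both against no treatment was -0.02 with median-ratio scaling and -0.07 with quantile normalization, and the interaction of IDO1 was -0.03 with a pseudocount of 0.1, with or without the replicate block. With libraries left out, the log2 fold change ran from -0.11 to 0.22 (ASL, CX3CL1 against no treatment), -0.05 to 0.10 (ASL, both against no treatment), -0.20 to 0.13 (ASL, both against CX3CL1), -0.08 to 0.25 (ASL, IFN-γ against CX3CL1), -0.69 to 0.20 (NOS2, IFN-γ against CX3CL1), -0.05 to 0.22 (GCH1, both against IFN-γ), -0.15 to 0.20 (IDO1, both against IFN-γ) and -0.16 to 0.19 (IDO1, interaction).

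The number of the 4 genes called was 1 with CX3CL1 and became 2 (NOS2 added) with the replicate block and a pseudocount of 0.1. With IFN-γ it was 2 and became 3 (NOS2 added) with a pseudocount of 0.1, with or without the block, with only the libraries compared and with replicate 2 left out of every group. For both against IFN-γ it was 1 and became 0 with a pseudocount of 0.1, with no filter and with only the libraries compared. For both against CX3CL1 it was 2 and became 1 with no filter and 1 when a mean of at least 1 TPM was needed. That filter, under which IDO1 was not tested, left 1 with IFN-γ and 0 for IFN-γ against CX3CL1. With libraries left out, the number ran from 0 to 1 (CX3CL1), 1 to 3 (IFN-γ), 0 to 1 (both against IFN-γ), 0 to 2 (both against CX3CL1), 2 to 3 (both against no treatment) and 0 to 1 (IFN-γ against CX3CL1). The cause of these shifts was not tested. The fits that leave out libraries or genes also hold fewer of them.

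The replicate block changed no call of the 4 genes: NOS2 with both against IFN-γ had an adjusted p of 0.00315, and its interaction an adjusted p of 0.361. Over all genes, the block gave 455 calls with CX3CL1 (232 without it), 1929 with IFN-γ (932), 95 for both against IFN-γ (43), 1369 for both against CX3CL1 (558), 2464 for both against no treatment (1417), 1601 for IFN-γ against CX3CL1 (544) and 52 in the interaction (0), and 13 of the 47 pathway genes in place of 7 with IFN-γ. Leaving replicate 1, 2 or 3 out of every group left 2, 4 and 1 of these 7 calls, and 7, 9 and 3 of the 11 with both against no treatment. With only the libraries compared, 20 genes were called for both against IFN-γ and 347 for both against CX3CL1. Leaving out libraries gave 80 to 268 calls with CX3CL1, 277 to 826 with IFN-γ and 4 to 54 for both against IFN-γ. TPM hold no depth, so precision rests on 3 libraries a group.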
